A study of Mus musculus with 2 samples.

Results

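The clustered protocadherins are 57 protein-coding genes that lie side by side on chromosome 18 of the mouse build mm10: 14 Pcdha genes, 22 Pcdhb genes and 21 Pcdhg genes. They were chosen by symbol from 21883 protein-coding genes, and the loops studied with them were all those with an anchor overlapping 36.8 to 38.1 Mb of that chromosome. This gave 20 of the 15592 loops listed for mice with experimental stroke and 15 of the 14779 loops listed for sham-operated mice. Stroke was produced by middle cerebral artery occlusion (MCAO): a filament blocked the vessel for 1 h, and cortex from its territory on the operated side was frozen after 6 h of reperfusion. Sham mice underwent the same operation without the filament being advanced and were sampled after 6 h of recovery. Contacts between distant DNA segments were mapped by Hi-C, in which segments that touch inside the nucleus are ligated and sequenced as pairs. According to the labels 3 cortices represent each group, but each group has 1 loop list. The sources used here do not give the strain, genotype, sex or age of the mice.

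Clustered protocadherins are cell surface adhesion proteins, and the set a neuron expresses helps its branches to tell self from non-self. Each gene has its own promoter in front of a variable exon. The variable exons of the alpha cluster are spliced to constant exons at the end of that cluster, those of the gamma cluster to constant exons at the end of theirs, while Pcdhb genes have no constant exons. Promoter choice is known to involve DNA loops made by the insulator protein CTCF and cohesin, which bring a promoter to enhancers downstream of the alpha constant exons or downstream of the gamma cluster. The files hold no positions of enhancers or of CTCF sites, so no anchor is assigned to one here.

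Each loop is a pair of anchors, and its support is counted in paired-end tags (PETs), read pairs with an end in each anchor. Library totals were derived from a signal deposited for each loop. They were 40550536 PETs for MCAO and 34974213 for sham, a depth ratio of 1.16. Both lists begin at 10 PETs, so a contact missing from a list may have fallen only slightly under that number. Intervals are exact 95% intervals for counts taken as independent. They cover counting error only and leave out differences between mice, since each group has 1 list. Sums of PETs run over listed loops only, so contacts under 10 PETs are missing from the sums and their intervals. Where different PETs stem from the same molecule, the intervals are too narrow. With 1 list per group no difference between MCAO and sham was tested. A whole cortex holds many cell types, so a change in the mix of cells and a change of contacts within cells cannot be told apart.

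The locus was divided at the ends of its genes, and each anchor was placed by its midpoint. A gene start or end is named with an anchor when it lies no more than 2.5 kb from it, so it may be outside the anchor. The alpha cluster ran from 36930285 to 37188897, the beta cluster from 37264998 to 37521419 and the gamma cluster from 37661775 to 37841873. The annotation also has Gm37013, Gm38666 and Gm38667, which start in the alpha cluster, run across both gaps and end with the gamma genes. Besides these, the gap between alpha and beta held no protein-coding gene, and the gap between beta and gamma held Slc25a2, a mitochondrial carrier gene, and Taf7, a gene of the general transcription machinery. Before the alpha cluster lie Zmat2, Hars2 and Hars, the last a histidyl-tRNA synthetase gene. The first gene after the gamma cluster is Diaph1, which encodes a formin that builds actin filaments (37843601 to 37935622).

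The lists differed in what the cluster anchors were joined to. In MCAO the gamma cluster was joined to Diaph1 by 5 loops, while 0 listed loops joined the alpha or beta cluster or either gap to it. In sham the gamma cluster was joined to Diaph1 by 3 loops, and 5 more reached across to it from the alpha and beta clusters and the beta-gamma gap. Conversely, 6 MCAO loops had both anchors inside the 3 clusters and their gaps, and sham had 0. The exact Poisson intervals, 2.20 to 13.1 loops for MCAO and 0 to 3.69 for sham, overlap. Of the 12 MCAO loops at a cluster or gap 8 carried only 10 or 11 PETs, against 2 of 9 in sham, beside 37.7% of all MCAO loops and 42.2% of all sham loops. The MCAO side of this contrast thus rests more on loops near the listing minimum. Its anchors were also narrower, with a median of 8.87 kb against 29.4 kb in sham. In all, the MCAO loops at a cluster or gap had 165 PETs over 315 kb of anchors, and the sham loops 152 over 512 kb. The part of anchor width in the PET numbers was not tested.

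**Figure D1:**
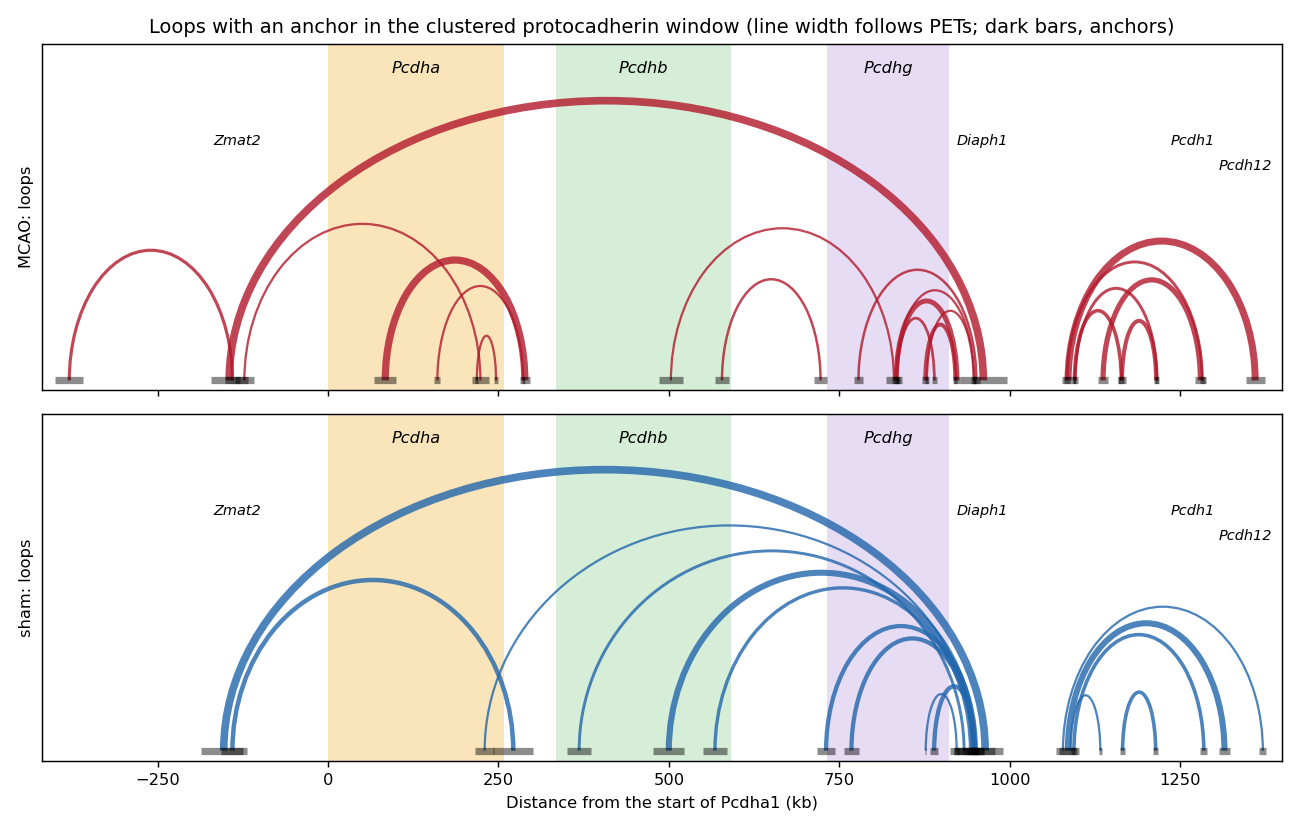
Loops of the window drawn as arcs between anchor midpoints, with MCAO above and sham below; the horizontal axis is the distance from the start of Pcdha1 in kb, dark bars are anchors, shaded blocks are the 3 clusters, line width follows PETs, and arc height follows the span with no scale of its own. Besides the long arc from the side of Zmat2, present in both, in MCAO 5 arcs run to Diaph1, just past the gamma cluster, all of them from the gamma cluster, and 6 arcs stay inside the clusters and gaps; in sham 8 arcs run from a cluster or gap to Diaph1.

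The ratio of MCAO to sham loops in the window was 1.33 (0.649 to 2.80), against 1.07 (0.957 to 1.20) for chromosome 18 and 1.06 (1.03 to 1.08) for all loops, so its interval holds both of those values. Per PET of each library the ratio was 1.15 (0.560 to 2.41) in the window, 0.925 (0.826 to 1.04) on chromosome 18 and 0.910 (0.890 to 0.931) for all loops, so the direction over all loops and on chromosome 18 turned with the scaling by depth. Among 1943 genome tiles of the same width of 1.3 Mb, 6.23% held at least as many MCAO loops as the window and 20.3% at least as many sham loops. A difference of 5 loops or more in favour of MCAO was found in 20.8% of the tiles. The direction of this difference turned with loops of at least 15 PETs, where it was -2, and with MCAO thinned to the depth of sham, where it was -0.995. In MCAO 7 of the 20 loops had a partner in the other list, 35.0% (15.4 to 59.2), beside 24.9% of all MCAO loops. In sham 7 of the 15 had one, 46.7% (21.3 to 73.4), beside 25.6% of all sham loops. A partner is a loop with both anchor midpoints within 1 anchor width. The median span in the window was 134 kb in MCAO and 230 kb in sham, beside 309 kb and 377 kb over the whole MCAO and sham lists. The median anchor width in the window was 9.48 kb in MCAO and 19.6 kb in sham, beside 20.7 kb and 24.8 kb over all loops of the MCAO and sham lists.

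At the beta cluster, loops of the MCAO list ended in the gamma cluster or just before it and loops of the sham list ended in or around Diaph1, although they started from partly the same genes. The MCAO list held 2 beta loops. One joined Pcdhb11 to Pcdhb14 and the end of Pcdhb10 (37415448 to 37451040) to a gamma anchor with the starts of Pcdhga10, Pcdhgb7, Pcdhga11 and Pcdhga12 (37748372 to 37772379), with 10 PETs and a span of 327 kb. The other joined Pcdhb19 to Pcdhb22 (37497677 to 37518707) to 37643185 to 37662346, which holds an end of Taf7 and the start of Pcdhga1, with 11 PETs and a span of 145 kb. Both lie at or next to the listing minimum.

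The sham list held 3 beta loops. The first joined Pcdhb2, Pcdhb3 and Pcdhb4 (37280705 to 37316595) to 37842275 to 37884274 with 13 PETs. The second joined Pcdhb10 to Pcdhb14 (37407412 to 37452931) to 37847868 to 37908285 with 27 PETs and a span of 448 kb, and its beta anchor wholly contains the MCAO anchor at Pcdhb11 to Pcdhb14. The third joined Pcdhb17 to Pcdhb21 and the end of Pcdhb16 (37480316 to 37515474) to 37852506 to 37892993 with 15 PETs and a span of 375 kb, and its beta anchor overlaps the MCAO anchor at Pcdhb19 to Pcdhb22. Together these 3 sham loops carried 55 PETs (41.4 to 71.6), a mean of 18.3 per loop over 259 kb of anchors. None had a partner in MCAO, beside 25.6% of all sham loops with one. That was nearly fixed in advance, since the MCAO list held 0 loops from the beta cluster to the downstream flank, and adds no further evidence. Anchor reads per kb and 1000000 PETs were close in the libraries here, 0.349 and 0.395 at the MCAO beta anchors, against 0.313 to 0.364 at the sham beta anchors.

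Within the alpha cluster the lists differed the other way round. The MCAO list held 3 loops with both anchors in the alpha cluster or in the gap just after it, with 52 PETs (38.8 to 68.2), and the sham list held 0. The exact Poisson intervals, 0.619 to 8.77 loops for MCAO and 0 to 3.69 for sham, overlap. Over the whole MCAO list only 24.9% of loops had a partner in sham, so loops listed in 1 group alone were common. Of the 3 MCAO loops, the one with most PETs, 32, joined the starts of Pcdha9, Pcdha10, Pcdha11 and Pcdha12 (36998273 to 37030315) to 37211227 to 37226741, a stretch after the shared end of the alpha genes. A second, with 10 PETs, joined the start of Pcdhac1 (37086397 to 37095047), a C-type alpha gene, to 37214621 to 37218592, which lies inside the far anchor of the first. The third, with 10 PETs and a span of 28.2 kb, joined 37146562 to 37150637, in the body of Pcdhac2, to 37174084 to 37179431. The stretch in the alpha-beta gap was thus used by 2 MCAO loops from different alpha promoters. In sham it was covered by 1 anchor, 37172950 to 37231112, which reached back over the shared end of all 14 alpha genes and was joined to the region of Zmat2 with 20 PETs. The MCAO partner of that sham loop had 10 PETs and ended at the start of Pcdhac2 (37141305 to 37166396), a ratio per 1000000 PETs, MCAO over sham, of 0.431 (0.180 to 0.965). The interval of this ratio did not hold 1, but the pair is 1 of 7 and no adjustment for their number was made. Its anchors covered 52.7 kb in MCAO and 90.2 kb in sham. Per kb of both anchors and 1000000 PETs it had 0.00468 in MCAO and 0.00634 in sham. The far anchors of that pair lay 48.2 kb apart, and with anchors required to overlap the pair is not matched. Pcdhac2, the other C-type alpha gene, was also the only alpha site listed with Diaph1: a sham loop of 10 PETs and 718 kb (37146063 to 37174091 with 37862172 to 37893021). Its alpha anchor lay in the body of Pcdhac2. The start of the gene, at 37143678, was outside the anchor but within 2.5 kb of it.

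The gamma cluster was joined to Diaph1 in both lists, by 5 MCAO loops with 70 PETs (54.6 to 88.4) and 3 sham loops with 48 PETs (35.4 to 63.6), with means of 14 PETs per loop over 80.1 kb of anchors in MCAO and 16 over 65.6 kb in sham. All 3 sham loops had an MCAO partner. At Pcdhgc3, a C-type gamma gene, a short loop to a spot just past the cluster carried 17 PETs in MCAO (37801799 to 37810732 with 37847423 to 37853283) and 10 in sham (37806104 to 37807944 with 37848674 to 37856127), a ratio per 1000000 PETs of 1.47 (0.634 to 3.58). Around Pcdhga6 a longer loop carried 11 PETs in MCAO (from 37701932 to 37714837) and 19 in sham (from 37687438 to 37708682), a ratio of 0.499 (0.215 to 1.10). The third pair had 10 PETs in MCAO, from Pcdhgc3, and 19 in sham, from Pcdhgc4 and Pcdhgc5, a ratio of 0.454 (0.189 to 1.03). Its gamma anchors lay 10.6 kb apart and did not overlap. The intervals of these 3 ratios all held 1. In the first pair the anchors were 8.93 and 5.86 kb wide in MCAO and 1.84 and 7.45 kb in sham. Per kb of both anchors and 1000000 PETs it had 0.0283 in MCAO and 0.0308 in sham, so its direction turned. The Pcdhga6 pair, 0.0120 in MCAO and 0.0139 in sham, and the third pair, 0.0212 and 0.0317, kept theirs. A further sham loop of 19 PETs had its anchor on the border of the cluster (37646991 to 37674680), over the starts of Pcdhga1, Pcdhga2 and Pcdhga3, and its midpoint fell in the beta-gamma gap.

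**Figure D2:**
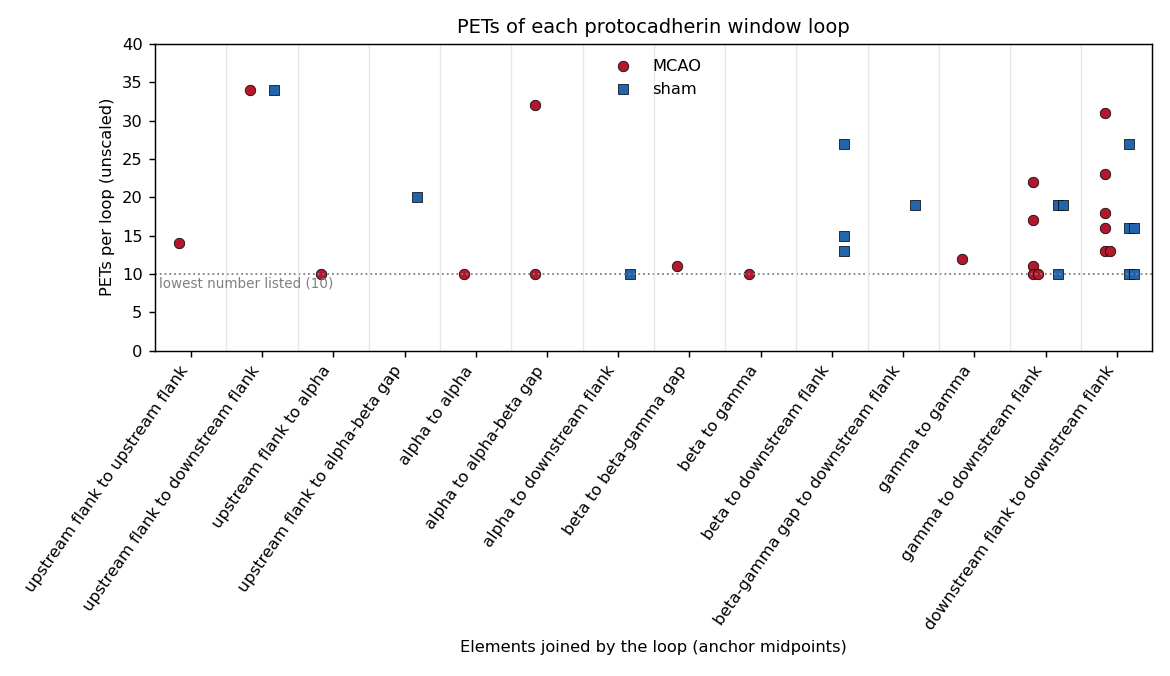
PETs of every loop of the window (vertical axis, unscaled counts), by the elements its anchor midpoints join, MCAO as circles on the left and sham as squares on the right of each column; the dotted line is the lowest number listed, 10. The beta to downstream flank column holds no MCAO loop and 3 sham loops (13, 15 and 27 PETs), and the alpha to alpha-beta gap column holds 2 MCAO loops (10 and 32 PETs) and no sham loop.

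Pcdhga12, the last A-type gamma gene before the C-type genes, carried 4 loops at its start in MCAO and 0 in sham (exact Poisson intervals of 1.09 to 10.2 and 0 to 3.69 loops, which overlap). The MCAO loops carried 54 PETs in all. Besides the loop from Pcdhb11 to Pcdhb14, the start of Pcdhga12 was joined to 37848428 to 37857241 with 22 PETs, to 37875896 to 37880251 with 10 and to the starts of Pcdhgc4 and Pcdhgc5 with 12. A difference of at least 4 in favour of MCAO at this end of a gene was found at 0.411% of all 21883 genes. Pcdhga12 was singled out after its values were seen, and only the loop of 22 PETs reached 15 PETs.

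Diaph1 was the site where anchors of both lists met. Of the 20 MCAO loops 6 had an anchor over it, with 104 PETs (85.0 to 126) and a mean of 17.3 per loop over 205 kb of anchors. Of the 15 sham loops 9 did, with 166 PETs (142 to 193) and a mean of 18.4 per loop over 540 kb of anchors. Both sums are unscaled for depth and hold listed loops only, so they do not measure all contact at Diaph1. The stack was highest at the same place in both lists. In MCAO the highest number over 1 position in the downstream flank was 4, at 37876486 to 37880251, which is 34.6 to 38.4 kb past the gamma cluster. In sham it was 8, at 37875400 to 37880900, a stretch that begins 33.5 kb past the cluster and contains the MCAO one. A second, nearer spot was used by 2 narrow MCAO anchors (37848428 to 37857241 from Pcdhga12, 37847423 to 37853283 from Pcdhgc3) and by the narrow sham anchor from Pcdhgc3 (37848674 to 37856127). In MCAO the start of Pcdhga12 was as heavily stacked as the Diaph1 spot, with 4 anchors at 37762954 to 37766511. Anchors over Diaph1 had a median width of 7.58 kb in MCAO and 30.8 kb in sham. A wide anchor covers more positions, and its part in the height of the sham stack was not tested.

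**Figure D3:**
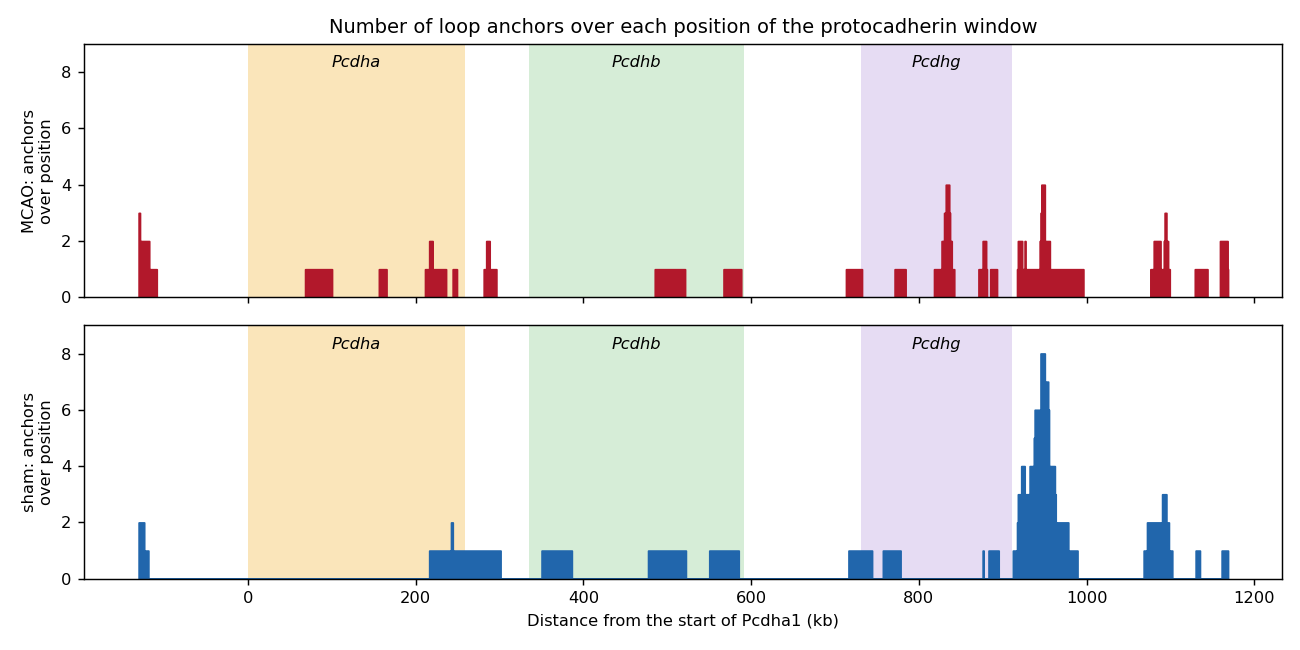
Number of loop anchors over each position, read every 1 kb, against the distance from the start of Pcdha1 in kb, MCAO above and sham below; shaded blocks are the 3 clusters. The MCAO anchors reach 4 just past the gamma cluster, where the sham anchors pile up to 8, and MCAO has another stack of 4 inside the gamma cluster at Pcdhga12.

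Loops without a partner often reused anchor sites of the other list. Of the 13 MCAO loops without a partner 7 had both anchors over anchors of sham loops, 53.8%, beside 32.3% of all MCAO loops without a partner. Of the 8 such sham loops 7 had both over anchors of MCAO loops, 87.5%, beside 29.4% over the whole sham list. At the clusters and gaps the numbers were 2 of 8 in MCAO, 25%, and 4 of 5 in sham, 80%. The MCAO share there was thus under that of its whole list. The part of wide anchors in these overlaps was not tested. No loop of the window was without an overlap at either anchor, beside 21.4% of unpartnered loops in MCAO and 24.2% in sham. Many of these sites are shared by several loops of the window, so the loops are not independent of each other.

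Around the clusters, the loop with most PETs in both lists passed over all of them. It joined the region of Zmat2 and Hars to Diaph1 and carried 34 PETs in MCAO (36757954 to 36812871 with 37856619 to 37926386) and 34 in sham (36743579 to 36811101 with 37868756 to 37919660), a ratio per 1000000 PETs of 0.862 (0.520 to 1.43). Its span was 1106 kb in MCAO and 1117 kb in sham, and the anchor midpoints of the pair lay 8.07 kb and 2.71 kb apart. Loops with at least 34 PETs made up 5.95% of the MCAO list and 5.81% of the sham list. Before the alpha cluster MCAO had a further loop of 14 PETs, between Ankhd1 and the region of Zmat2. After Diaph1, 6 MCAO loops with 13 to 31 PETs and 5 sham loops with 10 to 27 PETs had both anchors downstream of the gamma cluster, many of them with the second anchor beyond the window, and touched no clustered gene. There, an anchor at Pcdh1, a protocadherin gene outside the clusters, ended 2 MCAO loops (13 and 23 PETs) and 1 sham loop (16 PETs). The pair with the largest ratio in the window, 2.67 (1.28 to 6.11), was in that flank, with 31 PETs in MCAO and 10 in sham. The interval of this ratio did not hold 1. The anchors of the pair were wider in MCAO, 19.2 and 27.5 kb against 11.7 and 10.3 kb in sham. Per kb of both anchors and 1000000 PETs the pair had 0.0164 in MCAO and 0.0130 in sham. The pair from the region of Zmat2 to the alpha cluster also had an interval without 1, in the other direction, 0.431 (0.180 to 0.965). They are 2 of 7 pairs, no adjustment for their number was made, and the intervals cover counting error only.

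Counted gene by gene, the direction turned with the part of the gene used. Genes of the alpha cluster share their far end, as do those of the gamma cluster, so 1 anchor there counts for many genes. With anchors no more than 2.5 kb from a gene's ends, 3 of the 57 genes had more loops in MCAO and 30 had fewer, beside 28.7% and 20.7% of all genes. Of the 30 genes with fewer, 9 were Pcdha, 6 Pcdhb and 15 Pcdhg genes, and each of the Pcdha and Pcdhg genes had a sham loop counted through 1 of 2 anchors: the one over the shared alpha end or the one beginning 0.402 kb after the gamma cluster. The distinct loops behind these counts numbered 11 in MCAO and 9 in sham. With any part of the gene counted, 33 genes had more loops in MCAO and 7 fewer, beside 28.9% and 21.2% of all genes.

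Starts are the part that each gene has to itself. All 3 clusters are transcribed towards higher coordinates, so the lower-coordinate end was taken as the start. At starts, 12 genes had more loops in MCAO, 11 had fewer, 12 had equal numbers and 22 had none in either list, beside 22.2% with more and 16.9% with fewer among all genes at the same end. Of the 12 genes with more, 5 were Pcdha genes (Pcdha9 to Pcdha12 and Pcdhac1), 1 was Pcdhb22 and 6 were Pcdhg genes. Of the 11 genes with fewer, 6 were Pcdhb genes (Pcdhb2, Pcdhb3, Pcdhb4, Pcdhb10, Pcdhb17 and Pcdhb18) and 5 were Pcdhg genes at the front of the cluster (Pcdhga2, Pcdhga3, Pcdhga4, Pcdhgb2 and Pcdhga5). Within the gamma cluster the starts with a loop lay mostly towards the far end in MCAO, with 7 of 10 from Pcdhga10 onward, while in sham 7 of 10 lay from Pcdhga1 to Pcdhga6. Those 7 sham starts came from 1 loop over Pcdhga1, Pcdhga2 and Pcdhga3 and 1 over Pcdhga4, Pcdhgb2, Pcdhga5 and Pcdhga6. The far sham starts came from 1 loop at Pcdhgc3 and 1 at Pcdhgc4 and Pcdhgc5. By distinct loops sham thus did not lean to the front of the cluster. The distinct loops at starts were 3 in MCAO and 1 in sham for alpha, 2 in MCAO and 3 in sham for beta, and 8 in MCAO and 4 in sham for gamma. The first 8 Pcdha genes, Pcdhb1, Pcdhb5 to Pcdhb9, Pcdhb15 and 6 Pcdhg genes had no loop at their start in either list, nor had Pcdhb16.

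**Figure D4:**
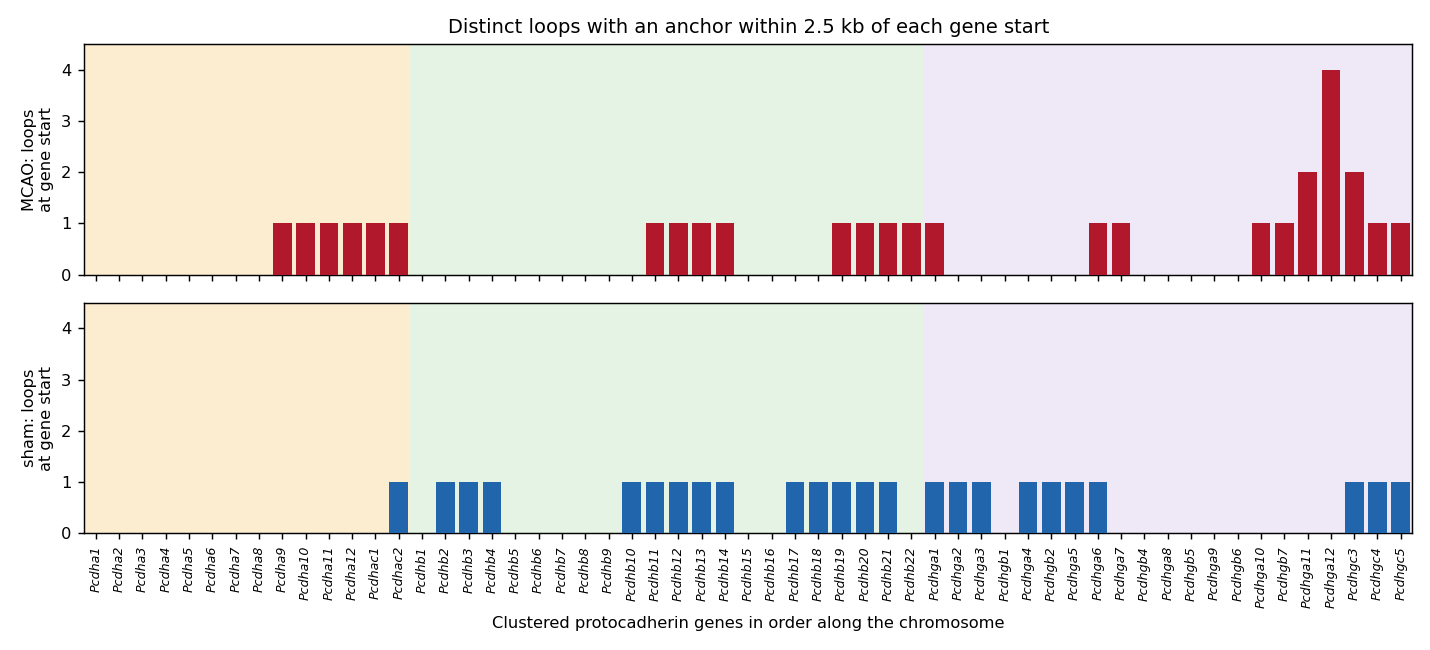
Number of distinct loops with an anchor within 2.5 kb of the start of each of the 57 genes, in their order along the chromosome, MCAO above and sham below; background colours mark the alpha, beta and gamma clusters from left to right. Bars of neighbouring genes often stand for the same loop; Pcdhga12 reaches 4 in MCAO and 0 in sham, and Pcdhb2 to Pcdhb4 and the front of the gamma cluster have bars mainly in sham.

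Genes that act on or with the clusters were counted in the same way, within 2.5 kb of either gene end. Of 13 genes for loop formation and repression of clustered protocadherins, 3 had more loops in MCAO and 5 had fewer, beside 28.7% and 20.7% of all genes. They had 7 gene-loop pairs in MCAO and 11 in sham, beside 18573 in MCAO and 15296 in sham over all genes, and a median difference of 0, which is also the median over all genes. Ctcf had 0 loops in MCAO and 2 in sham, and the histone methyltransferase gene Setdb1 had 0 and 2 likewise. The cohesin genes Smc3 and Stag2 had 2 and 3 loops in MCAO, against 1 and 2 in sham, Smc1a had 0 in MCAO and 1 in sham, and Rad21 and Stag1 had 0 in both. Smchd1, a repressor of the clusters, had 1 in each. Among 8 genes for binding partners and for proteins that cleave or signal from protocadherins, 4 had more loops in MCAO and 1 fewer, beside the same shares of all genes, with 19 pairs in MCAO and 13 in sham and a median difference of 0.5. The synaptic adhesion gene Nlgn1 had 6 in MCAO and 3 in sham, Wasf1, of the actin-regulating WAVE complex, had 4 and 2, and the sheddase gene Adam10 had 1 and 0.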

How the data were processed

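Hi-C was made from frozen cortex using the Arima kit, per the labels' protocols, and HiC-Pro and Bowtie2 were used with mm10, per the submitters' processing notes. Which program called the loops, and how, is not given in the sources used here. PETs per loop and reads per anchor are counts that the authors deposited without scaling. The deposited signal called density equals PETs per kb of both anchors per 1000000 PETs, which gave 1 library total per list, used here as depth. The enrichment and P2LL columns are ratio values of the authors, and were not used for results. The deposited p-values were used only to find the better part of each list (its median hypergeometric p-value), and the deposited FDR was at most 0.05.

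Genes were placed with a RefSeq table of GRCm38.p6, the assembly of mm10, without strand. Anchors were placed by midpoint. Ratios have exact conditional binomial intervals, shares exact Clopper-Pearson intervals and sums exact Poisson intervals. For thinning, the expected number of MCAO loops of at least 10 PETs at the sham depth was computed from binomial probabilities. Matching and gene counts were tested on simulated data. The members, lists and alternatives were chosen with earlier results of these data known. Genes named are members, genes at the other anchor of their loops, and 2 fixed lists of related genes. The files hold no expression, so tissue markers were not checked. Python 3.11.15, pandas 2.3.3 and scipy 1.17.1 were used.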

Additional observations from a re-analysis of the deposited data

How the results depend on the processing

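With 1 list per group no replicate could be left out. No paired analysis was possible because each group has 1 loop list. The difference of 5 loops in the window, MCAO minus sham, depended on loops near the listing minimum: it was -2 with at least 15 PETs (8 loops in MCAO) and -0.995 with MCAO thinned to the depth of sham, and 3 with both anchors required in the window. The window held 13 MCAO and 9 sham loops in the better part of the lists by the authors' p-value. Placing anchors by the element they overlap most or by every element they overlap moved no count by over 1.5 times. The remaining settings on loops by element were chosen after seeing the data. Loops at clusters or gaps numbered 3 in MCAO and 6 in sham with at least 15 PETs, and 6 in MCAO and 4 in sham in the better part. After thinning MCAO had 6.23, against 9 in sham as listed. The direction, with 12 in MCAO and 9 in sham by all listed loops, thus turned with the higher minimum and with thinning. Sham loops from the beta cluster to the downstream flank numbered 1 in the better part, and those from alpha, beta or their gaps 3 with at least 15 PETs and 2 in the better part; MCAO had 0 under each setting. Loops from gamma to the downstream flank numbered 2 in each list with at least 15 PETs, and 2 in each list in the better part. After thinning MCAO had 3.00, against 3 in sham as listed. The lead of MCAO by all listed loops, 5 against 3, was thus not kept under these settings. MCAO loops within alpha and the alpha-beta gap numbered 1 with at least 15 PETs and 1.46 after thinning, and those within all clusters and gaps 1 and 3.00, against 0 in sham. Genes with more loops in MCAO numbered 6 with no window at the gene ends, 9 with 10 kb, 33 with any part of the gene and 12 at starts; genes with fewer numbered 19 with 10 kb, 7 with any part and 11 at starts. Thinning and the higher minimum act on loops of few PETs by construction; the cause of the other shifts was not tested. Of the 12 MCAO loops at clusters or gaps 9 carried 10 to 14 PETs, as did 3 of 9 in sham, beside 9311 of 15592 loops in MCAO and 9458 of 14779 in sham over the whole lists.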
